A study of Mus musculus with 6 samples.

Results

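Phosphatidylinositol 4-kinases (PI 4-kinases) and the proteins that hold Pi4ka at the plasma membrane were followed as 10 genes in RNA of whole spleen pieces. They were chosen by symbol and are the 4 kinases Pi4ka, Pi4kb, Pi4k2a and Pi4k2b and the 6 Pi4ka partners Ttc7, Ttc7b, Fam126a, Fam126b, Efr3a and Efr3b. All 10 symbols matched 1 identifier each among the 31771 in the count table, and all 10 passed the filter on low counts. The 3 mutant mice carried VEC-Cre, an SB transposase and the transposon onc2, and the 3 controls were labelled WT. All 6 animals were labelled C57BL/6, and no age is stated. VEC-Cre is Cre recombinase driven by the promoter of VE-cadherin (Cdh5), a junction protein of endothelium, and such a promoter also marks the blood cells that descend from embryonic endothelium. SB stands for Sleeping Beauty, a transposon system. The transposon can activate or disrupt the genes it enters, at sites that differ between cells and animals, and its insertion sites were not analysed here. Pi4ka is the gene that the title of the study names in relation to myeloid and red cell formation.

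PI 4-kinases add a phosphate to phosphatidylinositol and so make PI4P, the lipid from which most PI(4,5)P2 of the plasma membrane is made. Pi4ka makes the PI4P of the plasma membrane and works there in a complex with a Ttc7 scaffold and a Fam126 subunit, which an Efr3 protein anchors to the membrane through lipid-modified cysteines. Pi4kb works at the Golgi, and the type II kinases Pi4k2a and Pi4k2b work on endosomes and the trans-Golgi network. Each partner has a pair of paralogs, and loss of Ttc7 in the flaky skin mouse is known to cause anaemia. Which paralog supplies each subunit in a tissue is therefore part of the description of the complex.

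The libraries held 72902118 to 79258116 counts. Plain levels are in CPM, in which every library is rescaled to one common total, and levels are in CPM per kilobase of exon where genes are compared with each other. Whole spleen RNA mixes cell types, and fewer cells of a type cannot be told apart from less RNA per cell. The 10 B-cell markers summed to 51.3 to 108 CPM in mutants and 6563 to 7417 CPM in controls, and all 10 were lower. The 6 megakaryocyte markers summed to 2949, 675 and 4591 CPM in mutants 1, 2 and 3, and to 227 to 412 CPM in controls. The 8 monocyte and macrophage markers summed to 370, 4620 and 627 CPM in mutants 1, 2 and 3, and to 749 to 1008 CPM in controls. The 10 erythroid markers, which include haemoglobin, summed to 5175, 48323 and 3866 CPM in the mutants in the same order, and to 52515 to 82360 CPM in controls. Counted gene by gene, 7 of these 10 had a positive log2 fold change (median 1.69), and 2 were called higher and 0 lower. The spleen mesenchyme gene Tlx1 was present in every library, at 8.48 to 13.9 CPM in mutants and 27.4 to 31.3 CPM in controls. The groups also differed in sex. The female-specific transcript Xist was at 1513 and 580 CPM in mutants 1 and 2 and at 0.586 CPM in mutant 3, whereas controls had 0.423 to 0.663 CPM. By Xist, mutant 3 is the one mutant of the same sex as the controls, and sex and genotype cannot be told apart for mutants 1 and 2.

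Of the 10 genes, 1 fell in the mutants and 0 rose, with edgeR's quasi-likelihood test and a threshold of 0.05 on the p adjusted over all genes. Over all 19573 genes tested, 6.90% were lower and 5.08% higher by the same rule, so the share of these genes that passed is near that of all genes. DESeq2 and limma-voom each called 1 of the 10 lower and 0 higher. Of all genes, DESeq2 called 14.7% lower and 14.9% higher, and limma-voom 10.2% and 5.16%. At an unadjusted p under 0.05 in the edgeR fit, 2 of the 10 were lower (Pi4kb and Efr3b) and 1 was higher (Ttc7b), against 15.0% lower and 16.2% higher of all genes. The gene that fell was Efr3b, a membrane anchor of the Pi4ka complex. The median log2 fold change (mutant over control) was -0.11 over the 10 genes and 0.10 over all genes tested. Every mutant lay below every control for 3 of the 10, which were Pi4kb, Efr3a and Efr3b, an arrangement seen in 22.6% of all genes tested. The reverse arrangement was seen in 18.0% of all genes and in 0 of the 10.

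**Figure D1:**
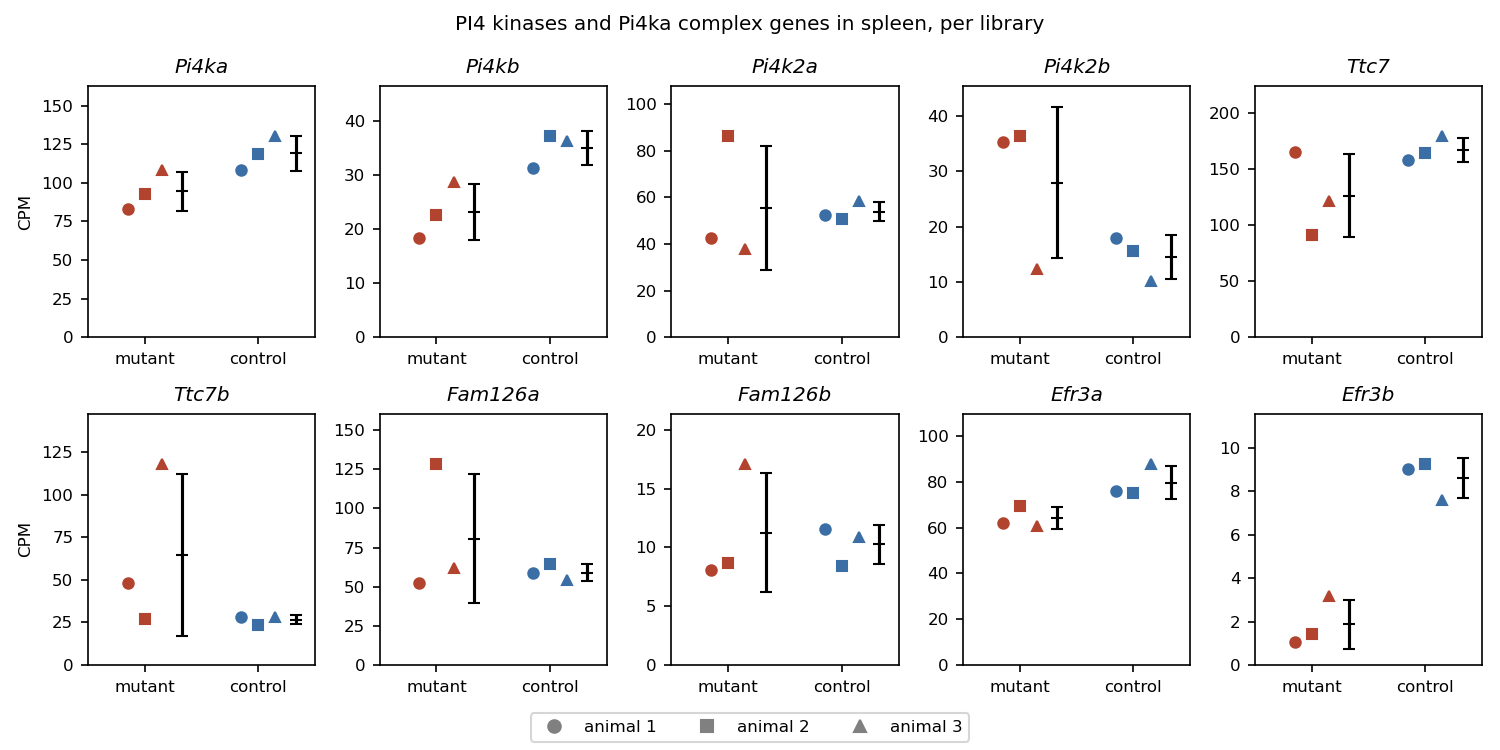
Level of each of the 10 genes in CPM (vertical axes, from 0) in 3 mutant and 3 control spleens. Symbols mark the animal within its group and bars the mean ± SD (n = 3). Efr3b is the gene with the widest gap between groups relative to its level, while single mutants stand apart in Ttc7b, Fam126a and Pi4k2a.

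Per kilobase of exon, Ttc7 was the most abundant of the 10 genes in both groups, at 18.8 ± 5.51 CPM per kilobase in mutants and 24.8 ± 1.65 CPM per kilobase in controls (SD, n = 3 each). In controls the order went on with Pi4ka (10.6 ± 0.986), Pi4kb (8.99 ± 0.808), Pi4k2a (8.06 ± 0.600), Efr3a (6.99 ± 0.624), Fam126a (5.84 ± 0.522), Pi4k2b (3.87 ± 1.06), Ttc7b (3.62 ± 0.361), Fam126b (0.852 ± 0.138) and Efr3b (0.831 ± 0.0876 CPM per kilobase). Among neighbours in that order, the control ranges overlapped for Pi4kb and Pi4k2a, for Pi4k2a and Efr3a, for Pi4k2b and Ttc7b, and for Fam126b and Efr3b. In the mutants the 8 most abundant genes ran from Ttc7 to Efr3a, and neighbours among these 8 overlapped in range. Fam126b (0.935 ± 0.420) and Efr3b (0.181 ± 0.109 CPM per kilobase) were the least abundant there as well, and their mutant ranges did not overlap. Within each pair of partners, Ttc7, Fam126a and Efr3a were the more abundant transcripts in all 6 libraries.

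Pi4ka (ENSMUSG00000041720, GRCm38 chromosome 16, 17280351 to 17406314, minus strand) is the kinase of the plasma membrane. It was at 82.9, 92.5 and 108.2 CPM in mutants 1, 2 and 3, against 108.0, 118.9 and 130.2 CPM in controls 1, 2 and 3. The groups met at their edges, mutant 3 lying just above control 1. The log2 fold change was -0.32 ± 0.16 (SE), with an adjusted p of 0.238 by edgeR. Leaving out any 1 library moved it between -0.39 and -0.21. Of the 11254 exon bases of Pi4ka, 240 are shared with Tmem191c and 60 with Snap29 on the opposite strand, and the strand setting of the counting is not stated. In all, 6 of the 10 genes share exon bases with a gene on the other strand, and that part of their counts is uncertain.

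Pi4kb, the Golgi kinase (ENSMUSG00000038861, chromosome 3, 94974731 to 95006843), was at 18.3, 22.5 and 28.6 CPM in the mutants and 31.3, 37.1 and 36.3 CPM in the controls. The groups did not overlap, yet the log2 fold change of -0.58 ± 0.22 did not pass (adjusted p = 0.133 by edgeR). Its exons share 407 bases with Gm15265, 254 with Zfp687 and 234 with A730011C13Rik, all on the opposite strand. The endosomal kinase Pi4k2a (ENSMUSG00000025178, chromosome 19, 42090470 to 42122087) was at 42.5, 86.3 and 38.0 CPM in mutants 1, 2 and 3, and 52.5, 50.9 and 58.5 CPM in controls. Mutant 2 alone was above the controls and the other two mutants were below them (log2 0.08 ± 0.37, adjusted p = 0.902 by edgeR), and without mutant 2 the sign turned (log2 -0.45, adjusted p = 0.0524 by edgeR). Pi4k2b, the second type II kinase (ENSMUSG00000029186, chromosome 5, 52741574 to 52769340), was at 35.3, 36.3 and 12.2 CPM in mutants 1, 2 and 3, against 17.9, 15.5 and 10.2 CPM in controls. Mutants 1 and 2 were above every control and mutant 3 was within their range (log2 0.96 ± 0.49, adjusted p = 0.237 by edgeR). Mutant 3, the one of the controls' sex, set alone against the controls gave log2 -0.30 (adjusted p = 0.562 by edgeR).

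The summed level of the 4 kinases was 27.8, 36.6 and 25.9 CPM per kilobase in mutants and 30.3, 31.9 and 32.4 CPM per kilobase in controls, with mutants on both sides of the controls. Its make-up differed more between mutants than between controls. Pi4ka made up 26.5%, 22.5% and 37.1% of the kinase sum in mutants 1, 2 and 3, and 31.7%, 33.2% and 35.7% in controls. Pi4k2b made up 33.8%, 26.4% and 12.6% in the mutants, and 15.8%, 12.9% and 8.37% in the controls. Per kilobase, Pi4k2b was thus the most abundant kinase transcript in mutant 1 and Pi4k2a in mutant 2, at 35.2%. Pi4ka led in mutant 3 and in all 3 controls. This order rests on the length correction. In plain CPM Pi4ka led in every library, at 82.9 CPM against 42.5 CPM for Pi4k2a and 35.3 CPM for Pi4k2b in mutant 1. In mutant 2 it was at 92.5 CPM against 86.3 CPM for Pi4k2a. These shares are descriptions and were not tested.

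**Figure D2:**
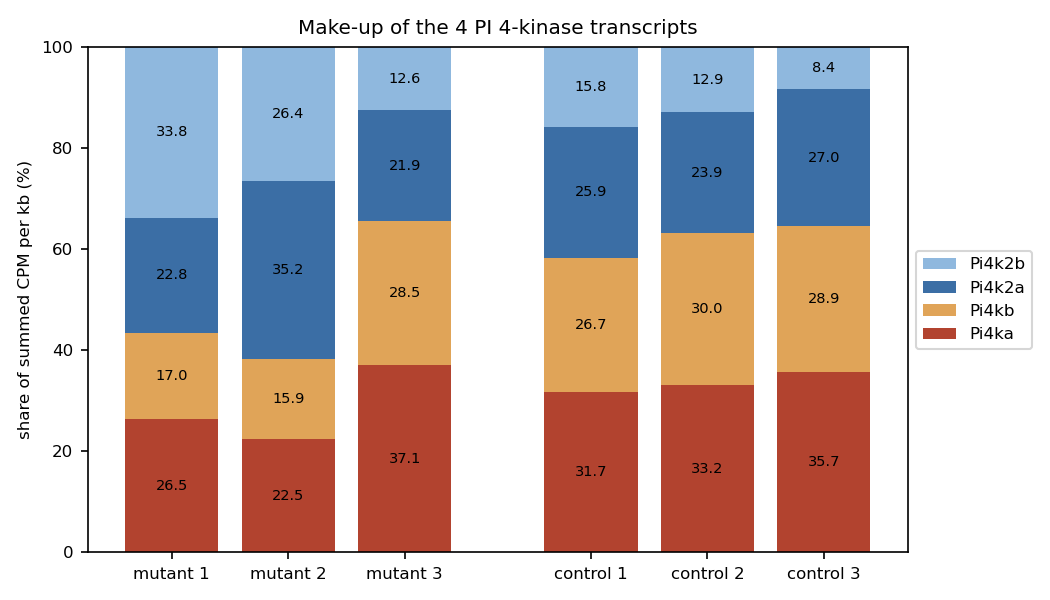
Share of each kinase in the summed CPM per kilobase of the 4 PI 4-kinases (vertical axis, percent) in each of the 6 libraries, mutants on the left. Mutant 3 resembles the controls, at 37.1% Pi4ka and 12.6% Pi4k2b, while mutants 1 and 2 hold 33.8% and 26.4% Pi4k2b.

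Ttc7, the more abundant scaffold (ENSMUSG00000036918, chromosome 17, 87282886 to 87381769), was at 165.1, 91.4 and 121.6 CPM in mutants 1, 2 and 3, against 157.5, 163.8 and 179.0 CPM in controls. Mutant 1 was within the control range and mutants 2 and 3 below it (log2 -0.40 ± 0.22, adjusted p = 0.272 by edgeR). Without mutant 1 the gene passed as lower (log2 -0.62 ± 0.15, adjusted p = 0.0481 by edgeR), as did 9.47% of all genes. Its paralog Ttc7b (ENSMUSG00000033530, chromosome 12, 100300770 to 100520826) was at 47.9, 27.2 and 118.1 CPM in mutants 1, 2 and 3, and at 28.0, 23.5 and 28.1 CPM in controls. Mutant 3 was far above the controls, mutant 1 was above the controls, and mutant 2 was among them. The log2 fold change of 1.26 ± 0.50 did not pass (adjusted p = 0.150 by edgeR), and without mutant 2 it did (log2 1.61 ± 0.38, adjusted p = 0.0351 by edgeR), when 13.6% of all genes were called higher. The order of Ttc7b over the 3 mutants was that of the megakaryocyte marker sum given above, and also of the endothelium and nerve marker sums. Among the controls, control 2 had the lowest Ttc7b and the highest of each of these sums. Mutant 3 also had the highest Cdh5, at 164 CPM against 44.1 and 42.6 CPM in mutants 1 and 2 and 38.9 to 44.6 CPM in controls. Cdh5 did not pass (adjusted p = 0.260 by edgeR). The 6 endothelium markers, Cdh5 among them, summed to 390, 317 and 585 CPM in mutants 1, 2 and 3, and to 462 to 511 CPM in controls. Of these 6, 5 had a positive log2 fold change, and 1 was called lower and 0 higher. The part of these cell types in the Ttc7b level was not tested.

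Fam126a, which encodes hyccin (ENSMUSG00000028995, chromosome 5, 23915276 to 24030690), was at 52.2, 128.4 and 61.7 CPM in mutants 1, 2 and 3, and at 58.6, 64.5 and 54.0 CPM in controls. Mutant 2 was above every control, and the other mutants were in or just below the control range (log2 0.49 ± 0.40, adjusted p = 0.447 by edgeR). Without mutant 2 the sign turned (log2 -0.086). Mutant 2 was also the library with the highest Pi4k2a and with the monocyte and macrophage marker sum of 4620 CPM. It had the highest neutrophil (1760 CPM), cell cycle (2915 CPM) and pancreas (51.5 CPM) marker sums of all libraries as well. Of the mutants it had the highest erythroid, T-cell and splenic stroma sums. The part of any of these cell types in the Fam126a or Pi4k2a level was not tested. Fam126b, the less abundant paralog (ENSMUSG00000038174, chromosome 1, 58522806 to 58586323), was at 8.04, 8.65 and 17.1 CPM in the mutants and at 11.5, 8.38 and 10.9 CPM in the controls. Mutant 3 was above the controls and the other mutants were near the low end of them (log2 0.13 ± 0.36, adjusted p = 0.831 by edgeR), and without mutant 3 the sign turned (log2 -0.25).

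Efr3a, the abundant membrane anchor (ENSMUSG00000015002, chromosome 15, 65787034 to 65873816), was at 62.1, 69.6 and 60.9 CPM in the mutants and 76.1, 75.1 and 87.9 CPM in the controls. The groups did not overlap, and the difference was small (log2 -0.29 ± 0.16, adjusted p = 0.269 by edgeR). Efr3b, its paralog (ENSMUSG00000020658, chromosome 12, 3962554 to 4038915, minus strand), was at 1.04, 1.43 and 3.17 CPM in mutants 1, 2 and 3, against 9.03, 9.26 and 7.58 CPM in controls. The mutant values rest on 76, 106 and 243 counts and the control values on 667, 722 and 601 counts. Every mutant was below every control, and Efr3b fell 4.61-fold in mutants (log2 -2.21 ± 0.49, adjusted p = 0.0400 by edgeR). The fold change was negative under all 16 alternatives, between -2.76 and -1.49. The adjusted p missed the threshold without control 1, 2 or 3 (0.157, 0.160 and 0.150), where 0.581% to 0.636% of all genes were lower by the same test, with no expression filter (0.0501) and by limma-voom when each group had its own variance (0.0832).

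The Efr3b decrease stood beside decreases in lymphoid, stromal and nerve markers. The 10 B-cell markers had a median log2 fold change of -7.01, and the 10 T-cell markers one of -3.98 with 5 lower. The 8 splenic stroma markers had one of -1.64, with 5 lower and 2 of positive sign. The 6 nerve markers summed to 6.06 to 10.7 CPM in mutants and 19.6 to 21.4 CPM in controls. Of the 5 tested, 2 were lower and 2 had a positive log2 fold change. No marker of these 4 lists was at a count of 0 in every library of a group. Mutant 3 kept the most Efr3b of the mutants and had the lowest sums of B-cell and T-cell markers, at 51.3 and 31.3 CPM. It had the highest nerve sum of the mutants, at 10.7 CPM against 8.63 and 6.06 CPM in mutants 1 and 2. Its splenic stroma sum of 206 CPM lay between those of mutants 1 and 2, at 100 and 282 CPM. The part of any of these cell types in the Efr3b level was not tested.

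**Figure D3:**
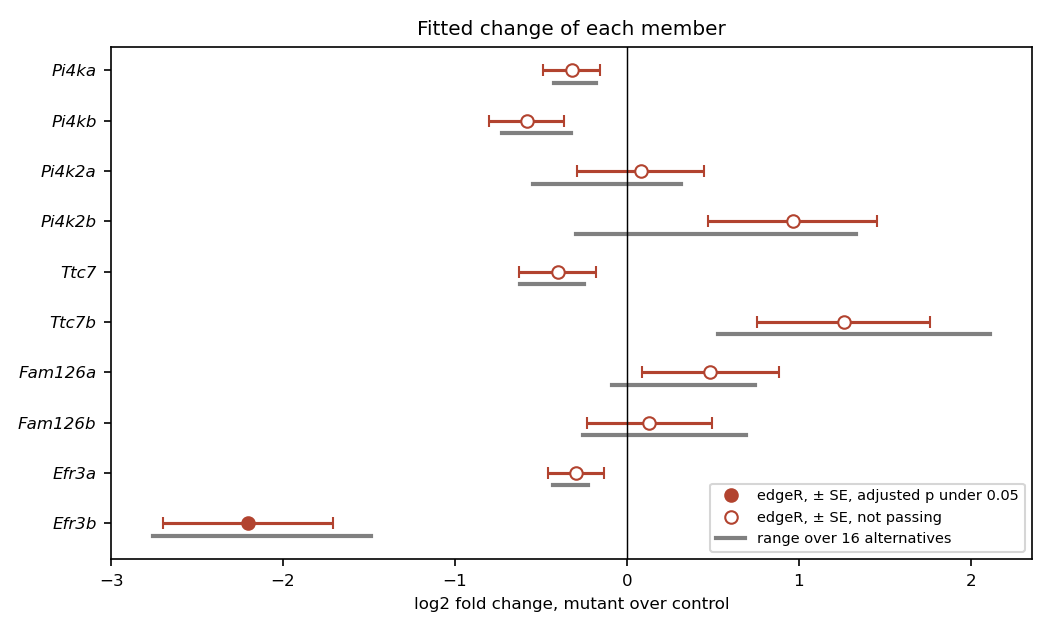
Log2 fold change of mutant over control for each gene (horizontal axis) by edgeR, ± SE, with grey bars for the range over 16 alternatives. The filled point is Efr3b at -2.21, the 1 gene of 10 that passed; the grey bars of Pi4k2a, Pi4k2b, Fam126a and Fam126b cross 0.

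The sequences before the start sites of Efr3b, the gene that fell, and of Pi4ka, the gene of the study's title, are shown because they differ in base composition. They are the 250 bases before a RefSeq transcript start on GRCm38.p6, 5′ to 3′ on the gene's strand, with capitals on each GC box (GGGCGG or its complement on the other strand, a sequence that Sp-family factors can bind). Pi4ka has 2 such windows, for an outer and an inner start. The outer one holds 0 GC boxes, 40.4% G and C, and 1 TATAAA and 1 CCAAT match, each on the strand opposite to the gene. The inner one holds 1 GC box and 72.4% G and C. The Efr3b window holds 2 GC boxes and 65.2% G and C. The median over all 32851 windows was 52.4% G and C, and 32.7% of them held a GC box, 33.8% a CCAAT and 12.4% a TATAAA, on either strand.
Efr3b, chr12:4038916-4039165, minus strand: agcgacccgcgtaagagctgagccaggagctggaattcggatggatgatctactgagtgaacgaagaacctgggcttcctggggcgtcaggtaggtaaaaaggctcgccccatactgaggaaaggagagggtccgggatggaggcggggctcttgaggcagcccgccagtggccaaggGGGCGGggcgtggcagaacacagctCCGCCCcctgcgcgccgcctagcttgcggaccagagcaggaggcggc
Pi4ka outer start, chr16:17406315-17406564, minus strand: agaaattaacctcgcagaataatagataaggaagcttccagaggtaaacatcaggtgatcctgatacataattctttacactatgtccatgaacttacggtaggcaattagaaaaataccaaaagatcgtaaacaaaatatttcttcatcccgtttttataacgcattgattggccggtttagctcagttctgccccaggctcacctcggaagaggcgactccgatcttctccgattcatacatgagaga
Pi4ka inner start, chr16:17405866-17406115, minus strand: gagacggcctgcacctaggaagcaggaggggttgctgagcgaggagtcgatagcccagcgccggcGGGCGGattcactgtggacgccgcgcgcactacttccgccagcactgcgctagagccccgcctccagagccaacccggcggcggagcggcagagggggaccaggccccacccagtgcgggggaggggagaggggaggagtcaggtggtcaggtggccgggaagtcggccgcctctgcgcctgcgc

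Of the 10 genes, 9 had a window in the RefSeq table, and 8 of these 9 held a GC box in at least 1 window. The exception was Fam126b, with 0 GC boxes in its 2 windows. A CCAAT box was found in 3 of the 9, and a TATAAA in 2, Pi4ka and Pi4kb. The GC box thus occurred on both sides of the comparison, in Efr3b as well as in members that did not pass, and these matches are letters in a window and not measured sites.

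Ratios within paralog pairs remove the scaling between libraries. Ttc7b stood to Ttc7 at 0.266, 0.274 and 0.892 in mutants 1, 2 and 3, against 0.163, 0.132 and 0.144 in controls, per kilobase. Every mutant had relatively more Ttc7b than every control, also mutant 2, whose Ttc7b level by itself was in the control range and whose Ttc7 level was the lowest of the 6. Efr3b stood to Efr3a at 0.0184, 0.0225 and 0.0571 in the mutants and at 0.130, 0.135 and 0.0948 in the controls. Every mutant had relatively less Efr3b than every control. Pi4k2b stood to Pi4k2a at 1.48, 0.750 and 0.574 in the mutants and at 0.609, 0.542 and 0.310 in the controls. The groups overlapped in that pair through mutant 3. Fam126a stood to Fam126b at 7.73, 17.7 and 4.30 in the mutants and 6.05, 9.16 and 5.91 in the controls, with mutant values on both sides of the controls. How often other gene pairs are apart in this way was not counted. Among single genes it was common, with 22.6% of all tested wholly lower in mutants and 18.0% wholly higher. These ratios are descriptions and were not tested, and a ratio shows unequal change and not which gene of a pair changed.

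**Figure D4:**
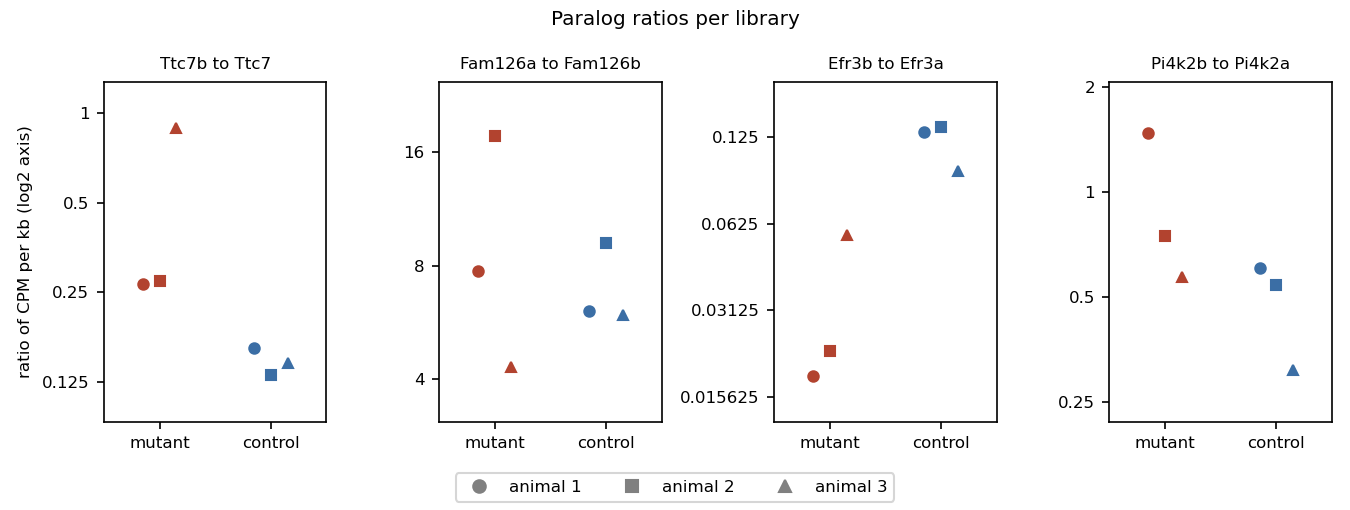
Ratio of CPM per kilobase within 4 paralog pairs (vertical log2 axes, each panel with its own scale) in 3 mutant and 3 control spleens, symbols marking the animal. The groups are apart for Ttc7b to Ttc7, at 0.266 to 0.892 in mutants and 0.132 to 0.163 in controls, and for Efr3b to Efr3a, and overlap for the other pairs. The share of other gene pairs so arranged was not counted.

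Outside the kinases and their partners, 54 genes that supply, regulate, use or break down PI4P and PI(4,5)P2 were listed, and 53 were tested. Of these, 4 were lower and 2 higher, and their median log2 fold change was -0.07. These counts are near the shares of all genes, 6.90% lower and 5.08% higher, so they show nothing particular to the pathway. The lower ones numbered 9 without mutant 2, where 15.3% of all genes were lower, and 1 to 2 without a control, where 0.581% to 0.636% were. The higher ones numbered 4 without mutant 1, where 8.73% of all genes were higher, 1 without mutant 3 (4.28%) and 0 without a control (0.0195% to 0.0392%). Among the 8 regulators of the kinases 1 passed. Tmem150c, a paralog of the Pi4ka complex regulator Tmem150a, was at 0.123, 0.134 and 0.235 CPM in mutants, from 9, 10 and 18 counts, and at 4.11, 4.40 and 4.38 CPM in controls (log2 -4.69 ± 0.44, adjusted p = 0.00515 by edgeR). Tmem150a itself was at 9.75 ± 3.35 CPM in mutants and 15.3 ± 0.514 CPM in controls and did not pass (adjusted p = 0.258 by edgeR).

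Among 16 proteins that bind or move PI4P 2 fell. Osbpl5, which exchanges PI4P for phosphatidylserine where the endoplasmic reticulum meets the plasma membrane, was at 5.97, 7.68 and 8.23 CPM in mutants and 39.8, 42.8 and 49.0 CPM in controls (log2 -2.57 ± 0.22, adjusted p = 0.00384 by edgeR). Gga2, a clathrin adaptor recruited to Golgi membranes, was at 27.5, 28.6 and 47.0 CPM in mutants and 137.5, 158.0 and 157.9 CPM in controls (log2 -2.14 ± 0.24, adjusted p = 0.00841 by edgeR). Neither gene's groups came near each other. Among 7 phosphatases 1 fell and 1 rose. Inpp5f, which removes the phosphate of PI4P, fell to 37.0 ± 4.86 CPM in mutants, against 63.6 ± 4.28 CPM in controls (log2 -0.78 ± 0.16, adjusted p = 0.0324 by edgeR). Ocrl, which removes the other phosphate of PI(4,5)P2 and so yields PI4P, was at 95.0, 44.1 and 44.9 CPM in mutants 1, 2 and 3, and at 16.7, 17.4 and 16.3 CPM in controls (log2 1.87 ± 0.34, adjusted p = 0.0242 by edgeR). Ocrl lies on the X chromosome. Mutant 3, of the controls' sex, set alone against the controls gave log2 1.38 ± 0.11 (adjusted p = 2.44e-05 by edgeR), a setting that called 25.7% of all genes higher. The part of sex in the Ocrl level of mutants 1 and 2 was not tested. Without control 1, 2 or 3, Gga2 (adjusted p = 0.0593 to 0.0644), Inpp5f (0.146 to 0.174) and Ocrl (0.121 to 0.131) missed the threshold. Inpp5f also missed it with no expression filter (0.0664) and by limma-voom with sample weights (0.0610) or separate group variances (0.117).

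Of the 3 tested kinases that turn PI4P into PI(4,5)P2, Pip5k1b rose, to 21.6, 41.5 and 53.0 CPM in mutants against 14.3, 14.1 and 9.69 CPM in controls (log2 1.62 ± 0.38, adjusted p = 0.0472 by edgeR). Pip5k1b missed the threshold without mutant 2 or 3 (adjusted p = 0.0551 and 0.0930 by edgeR) and without any single control (0.159 to 0.196). It also missed it by upper-quartile scaling (0.0519) and by limma-voom (0.0605, or 0.0841 with separate group variances). None of the 9 genes of phosphatidylinositol supply and transfer and none of the 10 phospholipases C passed. The most abundant of these per kilobase were Pitpna, a phosphatidylinositol transfer protein, and Plcg2, a phospholipase C of B-cell and myeloid receptors. Pitpna was at 259.2, 305.5 and 222.3 CPM in mutants and 271.6, 273.2 and 292.8 CPM in controls (adjusted p = 0.844 by edgeR). Plcg2 was at 336.6, 77.8 and 128.7 CPM in mutants 1, 2 and 3, and at 191.6, 225.5 and 244.9 CPM in controls, so that mutants lay on both sides (adjusted p = 0.732 by edgeR). Without mutant 1, Plcg2 passed as lower (log2 -1.07 ± 0.23, adjusted p = 0.0383 by edgeR). Without a control, Tmem150c and Osbpl5 (without control 1 or 3) or Osbpl5 alone (without control 2, where Tmem150c had an adjusted p of 0.0528 by edgeR) were the pathway genes that still passed.

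**Figure D5:**
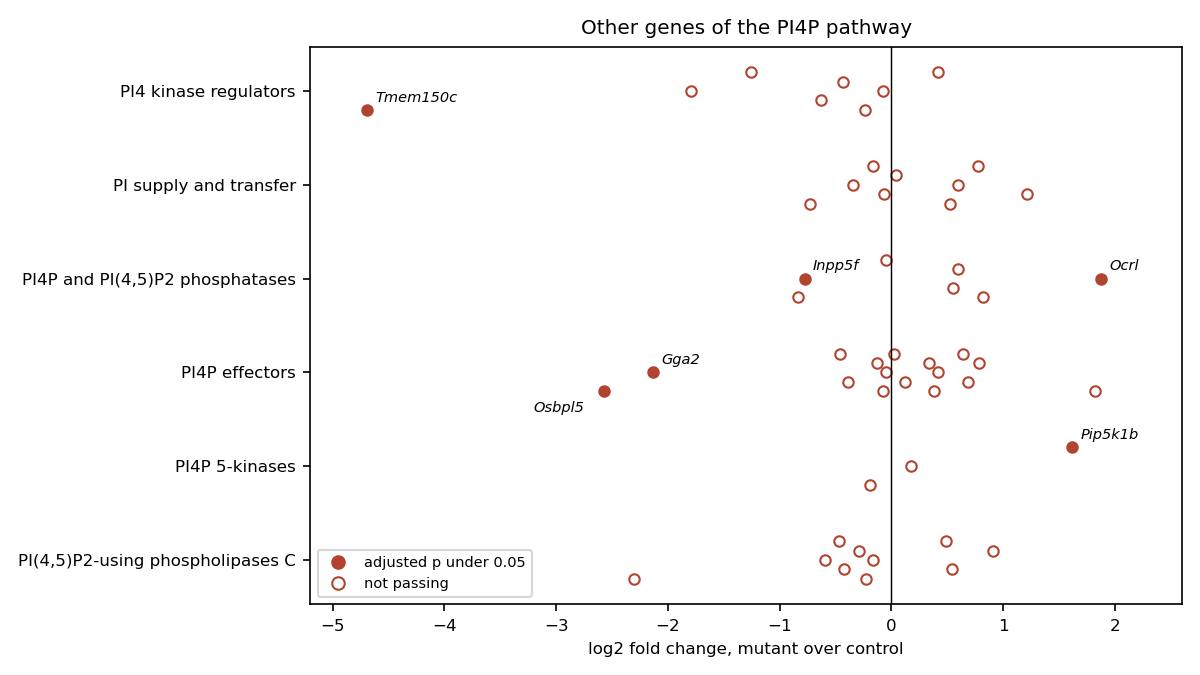
Log2 fold change of mutant over control (horizontal axis) for the 53 tested genes of the PI4P pathway outside the 10, by role, with filled points for the 6 that passed and their names. Tmem150c lies farthest to the left at -4.69 and Ocrl farthest to the right of those that passed, at 1.87.

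Genes whose level followed that of Pi4ka most closely over the 6 libraries were Stx16, Ddx58, Kmt2e, Pnrc2 and Smchd1, with Pearson r of 0.997, 0.996, 0.995, 0.992 and 0.987 on log2 CPM. These are the top 5 of 5910 genes with a mean log2 CPM of at least 5. Over so few libraries 218 of the genes had an r above 0.9, and the libraries share the group difference, so the values are given as a description. Stx16, a syntaxin of the trans-Golgi network, was at 108.2, 111.4 and 127.1 CPM in mutants and 122.4, 130.8 and 138.5 CPM in controls. Like Pi4ka, all 5 genes were lowest in mutant 1 and highest in control 3, a likeness that choosing genes by r favours.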

How the data were processed

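Stranded poly-A libraries of frozen spleen pieces used 50 ng of RNA each, per the labels' protocols. The deposited table holds whole-number counts by Ensembl identifier, and the authors applied no normalization to it. The submitters' processing notes name STAR 2.5.3a, limma, mm10 and GRCm38 but give no role for any. Annotation release, strand setting and treatment of shared reads are not stated.

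Groups follow the genotype label, and replicate numbers follow accession order. Nothing says how the animals relate, and the p-values set the group difference against the spread between these animals. The edgeR fit gives both groups the same dispersion for a gene. The biological coefficient of variation, the spread between animals beyond counting noise, was 73.2% in mutants and 17.1% in controls. Of 31771 identifiers, 31669 matched a symbol in GENCODE M21 (GRCm38), which gave positions and exon lengths, and libraries held 72902118 to 79258116 counts. edgeR 4.0.16 (R 4.3.3) tested 19573 genes with its expression filter, TMM factors, a robust quasi-likelihood fit and adjustment by Benjamini-Hochberg. SE is the log2 fold change over the square root of F. Log2 CPM used a prior count of 2. The procedure was run on simulated data in which both groups had the same dispersion. That run could not show how the fit behaves with the unequal spread found here. Alternatives used DESeq2 1.42.0, limma 3.58.1, other scalings and filters, and subsets of libraries. Members and lists were chosen with earlier results of these data known. Named were the 10 members, Cdh5, up to 4 passing genes of each pathway list or else its most abundant one, and the 5 genes most like Pi4ka. Tmem150a, Xist and Tlx1 were named after their values were seen. Promoter windows are RefSeq's (GRCm38.p6).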

Additional observations from a re-analysis of the deposited data

How the results depend on the processing

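Efr3b was lower in mutants under all 16 alternatives and passed in 11, missing the threshold in the 5 named with its values. Counts of the 10 genes called lower were 0 with no expression filter or a variance for each group by limma-voom. Of all genes, 3.42% and 4.02% were lower there. With 1 library left out the counts were 0 to 2, where 0.581% to 15.3% of all genes were lower. Counts called higher were 1 by limma-voom with sample weights, where 9.41% of all genes were higher. With 1 library left out they were 0 to 1, where 0.0195% to 13.6% of all genes were higher. Mutant 3 alone against the controls gave 4 lower and 2 higher, but it takes its spread from the controls and called 26.9% of all genes lower and 25.7% higher.

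Of the 53 pathway genes, 8 were lower and 6 higher by DESeq2, which called 14.7% of all genes lower and 14.9% higher, and 22 lower and 19 higher with mutant 3 alone. The number higher was 1 by upper-quartile scaling, by limma-voom and with a variance for each group. Of all genes, 3.78%, 5.16% and 3.71% were higher in these settings. With 1 library left out 1 to 9 pathway genes were lower and 0 to 4 higher, beside 0.581% to 15.3% and 0.0195% to 13.6% of all genes. The sign turned for Pi4k2a by upper-quartile scaling (log2 -0.028), limma-voom (-0.055), the same with sample weights (-0.28) or a variance for each group (-0.058), and with mutant 3 alone (-0.55), and for Pi4k2b with mutant 3 alone (-0.30). With 1 library left out the log2 fold change ranged from -0.45 to 0.32 for Pi4k2a, -0.086 to 0.75 for Fam126a, -0.25 to 0.34 for Fam126b, -0.24 to 0.063 for Pitpna and -1.07 to 0.052 for Plcg2. Upper-quartile scaling put the median log2 fold change of all genes at 0.00, against 0.10 with TMM. The cause of these shifts was not tested. Without length correction the group differences (mutant minus control) in kinase shares, not the shares themselves, moved by less than the larger group SD, that of the mutants. The moves were still sizeable. The Pi4kb difference went from -8.08 to -4.01 percentage points, where the SD was 6.97 in mutants and 1.72 in controls. That of Pi4k2b went from 11.9 to 7.24 percentage points, where the SD was 10.8 in mutants and 3.73 in controls. In the log2 paralog ratios exon length cancels from the group difference, so that setting could not move it. Leaving out 1 library cannot move a group mean by 1 SD of its group, so a shift below 1 SD was no test there. With 1 library left out the difference turned in sign for the Pi4k2a share (-3.25 to 3.43 percentage points) and for the Fam126a to Fam126b ratio (log2 -0.26 to 0.76). No paired analysis was possible because the labels give the groups no shared replicate numbers. Depth limits mainly Tmem150c, with 9, 10 and 18 counts in mutants.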
